A study of Rattus norvegicus with 24 samples.

Results

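The spleens of 6 rats, 3 given cyclophosphamide and 3 given vehicle, all kept with wood sticks, are described here. Their arrays, named below by animal, are CTX 4001, 4003 and 4005 and vehicle 3001, 3003 and 3005. They were chosen by the tissue, drug and housing named in the sample titles, and make up 6 of the 24 arrays of a study that paired liver and spleen from 12 rats. All were wild-type male Sprague-Dawley rats aged 46 to 49 days. The drug was given by mouth at 40 mg/kg/day for 5 days. Both groups had wood, so wood does not separate them, and the vehicle is not named in the sources used here. Each organ was homogenised on its own, 5 µg of its RNA went to an Affymetrix Rat 230 2.0 array, and the unit of replication is the rat. A single dose and a single time limit what the comparison can describe. Besides these groups, cyclophosphamide and vehicle spleens without wood and livers with wood, 3 arrays in each group, serve for comparison.

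Cyclophosphamide is a prodrug that liver cytochrome P450 enzymes turn into a mustard that crosslinks DNA, and dividing cells and lymphocytes are its best known targets. In the rat, the spleen holds B cell follicles and T cell zones in its white pulp. Its red pulp macrophages take up old red cells and recycle their iron, and the rodent red pulp also makes red cells, granulocytes and platelets. The arrays were made from whole organs, so fewer cells of a type and less RNA per cell cannot be told apart. Each array took the same 5 µg of RNA. A rise of a gene within its cells and a larger share of those cells in the organ cannot be told apart either.

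The 6 arrays were even in quality. Between 1102 and 1155 of 30980 probe sets were blank on the CTX arrays and between 1054 and 1183 on the vehicle arrays. Median intensities were 113 to 119 on the CTX arrays and 114 to 116 on the vehicle arrays. Across genes, arrays of the same group correlated at 0.9745 to 0.9795 and arrays of different groups at 0.9149 to 0.9338, so that no array stood with the other group.

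The question of the comparison is what 5 days of the drug did to the spleen transcriptome. Of 13813 genes tested with limma (Benjamini-Hochberg adjusted p under 0.05), 5321 passed, or 38.5%. These were 2730 higher (19.8%) and 2591 lower (18.8%) in CTX spleens. Most changes were small. By a cut of 2-fold, more of the genes that passed rose (966) than fell (680). Falls were the majority only among the larger changes: 80 genes rose by 4-fold or more while 167 fell by as much. By a cut of 16-fold, 4 rose and 25 fell. The median log2 change over all genes tested was -0.03. Groups did not overlap in 7475 genes tested (54.1%). A list of genes is read below against these shares.

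The genes described first had a value on all 6 arrays, groups that did not overlap and a mean log2 level of at least 6 in the higher group. Among them, the 10 largest falls were led by Chst1, a carbohydrate sulfotransferase. Its log2 intensities were -1.83, 4.71 and 3.44 in CTX spleens, against 9.61, 9.26 and 8.98 in vehicle spleens. The log2 change of -7.18 ± 1.64 (SE, limma adjusted p = 0.0177) was -5.21 without CTX 4001, -8.48 without CTX 4003 and -4.60 with 16 added to every intensity, and missed the threshold without vehicle 3001 or 3003 (limma adjusted p = 0.0511 to 0.0513). Lilrb4, an inhibitory receptor of myeloid cells, changed by -5.92 ± 1.38 and likewise had a wide spread: 2.16, 3.22 and -2.15 in CTX spleens, against 7.58, 6.26 and 7.14 in vehicle spleens. Without vehicle 3001 or 3005 its limma adjusted p was 0.0531 to 0.0562, and with 16 added its change was -2.83. Its change was -6.99 without CTX 4003 and -4.30 without CTX 4005. The other 8 had smaller SEs, although Rsad2 among them also spread widely in CTX spleens. These 8 include the red cell genes Alas2, Ahsp, Hemgn and Hba-a3, the B cell genes Cd79b and Ms4a1, and the antiviral Rsad2. The last of the 8 is B3gnt5, an enzyme of glycolipid synthesis. It had 6.37, 7.14 and 5.73 in CTX spleens, against 11.58, 11.77 and 11.33 in vehicle spleens.

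By the same rule the 10 largest rises were smaller, between 2.64 and 3.10 on the log2 scale, and the 4 genes that rose at least 16-fold did not meet it. Wnt5b, a secreted signalling protein, had log2 intensities of 6.79, 6.41 and 6.24 in CTX spleens, against 4.65, 2.30 and 3.20 in vehicle spleens (8.54-fold, limma adjusted p = 0.00893). Angptl2, a secreted angiopoietin-like protein, was the most even of them, at 9.22, 9.44 and 9.03 in CTX spleens, against 6.11, 6.42 and 6.41 in vehicle spleens (7.54-fold, limma adjusted p = 0.000532). The others were Bcar1, an adaptor of integrin signalling (3.03), Rsph10b, a part of the ciliary axoneme (3.00), the protease Ctsk (2.91), the cytochrome Cyp2j3 (2.83), the secreted Tafa1 (2.72), the kallikrein Klk1b3 (2.72), the matrix protein Matn2 (2.67) and the quinone reductase Nqo2 (2.64). Without CTX 4001, Cyp2j3 missed the threshold (limma adjusted p = 0.0507). Without vehicle 3001, Wnt5b changed by 3.73 and Cyp2j3 by 2.12. With 16 added to every intensity the rises of Wnt5b, Rsph10b and Cyp2j3 came to 1.92, 1.96 and 1.69.

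**Figure D1:**
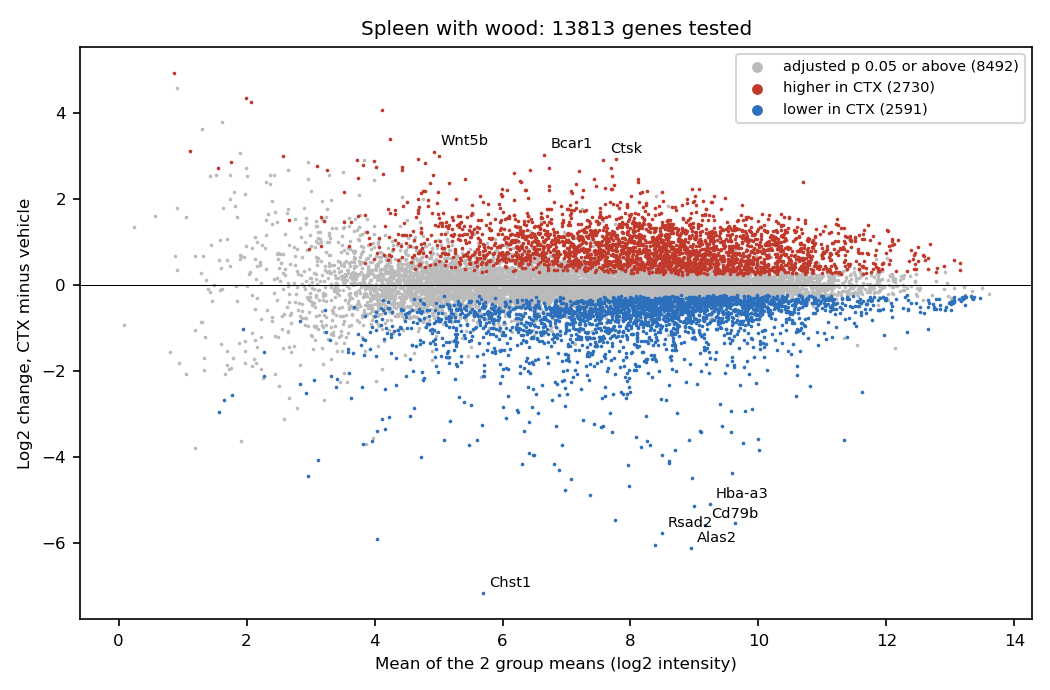
Each point is 1 of the 13813 genes tested, with the mean of its group means on the horizontal axis (log2 intensity) and its log2 change, CTX minus vehicle, on the vertical axis. Red points (2730) are higher and blue points (2591) lower in CTX spleens at an adjusted p under 0.05, and the named falls of Alas2, Rsad2, Cd79b and Hba-a3 lie below -5.

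Genes of maturing red cells fell. Of 22 such genes tested, 19 fell and 0 rose, and the median log2 change was -3.26. Alas2, which starts haem synthesis in red cell precursors, had 6.50, 5.71 and 5.42 in CTX spleens, against 11.85, 11.81 and 12.36 in vehicle spleens, a 70.2-fold lower level (log2 change -6.13 ± 0.31 SE, limma adjusted p = 0.000532). Ahsp, the chaperone of alpha globin, had 5.76, 5.32 and 4.99 in CTX spleens, against 11.01, 11.27 and 11.96 in vehicle spleens. The groups lie far apart for both genes, and vehicle 3005 is the highest array for both. Hba-a3, an alpha globin gene, fell 34.4-fold, although globin genes are near-identical copies and their probes may share signal. Hemgn, a nuclear protein of blood precursors, fell 44.8-fold. Epb42, a protein of the red cell membrane skeleton, had 6.29, 6.61 and 8.25 in vehicle spleens and was blank on all 3 CTX arrays, so it was not tested. Among the 3 that did not pass, the membrane protein Gypc had 10.90, 10.68 and 10.87 in CTX spleens, against 10.34, 10.43 and 10.88 in vehicle spleens. Ank1, the ankyrin of red cells, had a change of -0.49 without passing on the probe set used, while 2 other probe sets of it passed at -2.37 and -1.27.

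Of 14 genes that direct red cell formation, 12 fell, 0 rose, and the median was -1.68. Klf1, the master regulator of adult globin expression, had 6.58, 6.23 and 7.04 in CTX spleens, against 8.62, 8.96 and 9.91 in vehicle spleens (5.83-fold lower, limma adjusted p = 0.00408). Nfe2, a factor of red cells and platelets, fell 18.2-fold. Bcl11a, which silences fetal globin and is also a B cell factor, fell 25.7-fold. The erythropoietin receptor Epor, at 8.59, 8.77 and 8.83 in CTX spleens and 8.37, 8.43 and 9.08 in vehicle spleens, and the cofactor Ldb1 did not pass, and their groups overlapped. The RefSeq promoter window of Alas2, the red cell gene that fell furthest, is shown in build GRCr8, 5′ to 3′ and ending at the base before the start, with the GATA motif (AGATAA, searched on both strands) in capitals.

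Alas2 (chrX:22895200-22895449, plus strand): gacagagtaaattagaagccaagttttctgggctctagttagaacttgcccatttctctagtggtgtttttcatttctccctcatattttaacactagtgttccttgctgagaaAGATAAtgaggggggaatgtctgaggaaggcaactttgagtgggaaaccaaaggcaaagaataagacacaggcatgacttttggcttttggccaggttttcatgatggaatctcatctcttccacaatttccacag

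The motif was in 4 of 16 promoter windows of the maturing red cell genes (25.0%), against 7.1% of 11384 windows of genes tested. The CACCC box that factors such as Klf1 bind, on either strand, was in 9 of 16 (56.2%), against 62.8%. Shares here and below are over windows of 250 bases before and 50 after the first listed start. A match in letters is a description and not a site.

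Genes still expressed in early blood cells moved both ways. Of 10 tested, 4 rose and 2 fell, with a median of -0.21, beside 19.8% and 18.8% of all genes tested. The count that fell was 1 without any array but CTX 4001. Erg, a factor of stem cells and also of endothelium, had 9.0, 8.80 and 8.58 in CTX spleens, against 6.78, 6.52 and 7.30 in vehicle spleens (3.79-fold, limma adjusted p = 0.00203). Meis1, a homeobox partner of stem cells and megakaryocytes, rose 3.14-fold. Myb, which drives division of progenitors, fell 2.69-fold (limma adjusted p = 0.00851).

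All 17 B cell genes tested fell, with a median log2 change of -3.16 and a range of -5.58 to -0.77. Cd79b, a signalling chain of the B cell receptor, had 6.22, 7.51 and 5.39 in CTX spleens, against 11.84, 12.18 and 11.86 in vehicle spleens (48.0-fold lower, limma adjusted p = 0.00112). Ms4a1, which encodes CD20, had 6.53, 8.14 and 5.95 in CTX spleens, against 12.40, 12.57 and 12.25 in vehicle spleens. In both genes CTX 4003 is the highest of the CTX spleens and still far under every vehicle spleen. Without CTX 4003 the change of Ms4a1 was -6.17, against -5.54 with all arrays. Fcer2, the low-affinity IgE receptor CD23 of follicular B cells, fell 23.0-fold, and Blnk, the adaptor that carries the receptor's signal, fell 15.7-fold at 6.39, 6.87 and 6.26 in CTX spleens, against 10.48, 10.54 and 10.40 in vehicle spleens. Of 11 B cell genes with a promoter window, 2 (18.2%) held the octamer ATGCAAA on either strand, which binds the Oct factors of B cells, against 3.5% of windows of genes tested. The PU.1 core GAGGAA was in 6 of 11 (54.5%), against 26.9%. Both windows with the octamer are shown, from RefSeq build GRCr8, ending at the base before the start, with the octamer in capitals. Vpreb3, a chaperone of the immature B cell receptor, had a log2 change of -2.23 and was chosen for its motif after its values were seen.

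Blnk (chr1:249770534-249770783, minus strand): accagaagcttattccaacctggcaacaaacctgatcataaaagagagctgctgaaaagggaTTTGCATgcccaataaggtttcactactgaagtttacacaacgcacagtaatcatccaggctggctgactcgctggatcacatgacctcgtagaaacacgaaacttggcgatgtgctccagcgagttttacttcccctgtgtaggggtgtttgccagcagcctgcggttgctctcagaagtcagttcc

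Vpreb3 (chr20:12718227-12718476, minus strand): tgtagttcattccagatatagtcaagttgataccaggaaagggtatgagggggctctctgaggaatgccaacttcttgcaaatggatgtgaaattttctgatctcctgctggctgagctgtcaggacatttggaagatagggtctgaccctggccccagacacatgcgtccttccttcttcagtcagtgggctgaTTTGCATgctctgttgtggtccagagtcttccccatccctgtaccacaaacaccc

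Genes of activated and antibody-making B cells had smaller median changes. Of 5 germinal centre genes, 3 fell and 0 rose (median -0.60). Gcsam, a signalling adaptor of germinal centre B cells, had 8.50, 7.90 and 8.26 in CTX spleens, against 9.06, 9.25 and 9.38 in vehicle spleens. Of 7 plasma cell genes, 4 fell and 0 rose (median -0.54), or 2 without CTX 4005, vehicle 3003 or vehicle 3005. Mzb1, a chaperone of antibody secretion that marginal zone B cells share, fell 7.72-fold, at 8.44, 8.29 and 8.20 in CTX spleens against 11.03, 11.39 and 11.36 in vehicle spleens. Tnfrsf17, the survival receptor of plasma cells, fell 2.53-fold, and its log2 change was -2.14 with the mean of its probe sets, against -1.34. Prdm1 and Xbp1, the factors that make and equip plasma cells, did not pass, with log2 changes of 0.05 and -0.07.

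Few T cell genes passed as lower, although most had a negative change. Of 22 tested, 4 rose and 1 fell, beside 19.8% and 18.8% of all genes tested. The median was -0.35, and only 5 of the 22 changes were positive. Il7r, the interleukin-7 receptor, had 10.61, 10.20 and 10.36 in CTX spleens, against 9.61, 9.57 and 9.62 in vehicle spleens (1.73-fold, limma adjusted p = 0.00477). The coreceptor Cd4 rose 1.65-fold, the costimulator Icos 1.64-fold and the adhesion molecule Cd2 1.52-fold. The count of T cell genes that rose was 1 without CTX 4003, CTX 4005, vehicle 3001 or vehicle 3005 and 2 without vehicle 3003, and Il7r passed each time. Cd3e, a chain of the T cell receptor complex, had 8.61, 9.32 and 9.63 in CTX spleens, against 9.56, 9.47 and 9.62 in vehicle spleens, and did not pass (limma adjusted p = 0.312). CTX 4001 was the lowest array for Cd3e and for Cd3d, Cd3g and Cd5. The changes of Cd3e, Cd3d, Cd3g and Cd5 were -0.36, -0.59, -0.40 and -0.53, and none passed. The naive T cell factor Lef1 changed by -0.75 (limma adjusted p = 0.021), and its adjusted p was 0.0618 to 0.0639 without vehicle 3001 or 3005. A second Lef1 probe set did not pass at -0.86.

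Of 17 genes of natural killer and cytotoxic cells, 3 passed as lower and 0 as higher, beside 18.8% lower and 19.8% higher among all genes tested. The count that fell was 0 without vehicle 3005 and 1 without CTX 4003, CTX 4005 or vehicle 3001. Prf1, the pore protein perforin, had 9.66, 9.52 and 9.54 in CTX spleens, against 10.10, 9.87 and 10.22 in vehicle spleens, a change of -0.49. Of 10 dendritic cell genes, 6 fell and 1 rose, a count that was 1 to 3 without any one array but CTX 4001. Clec9a, a receptor of cross-presenting dendritic cells for dead cells, fell 1.49-fold and passed in each of these fits. Fscn1, an actin bundler of mature dendritic cells that other cells also use, rose 2.20-fold.

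**Figure D2:**
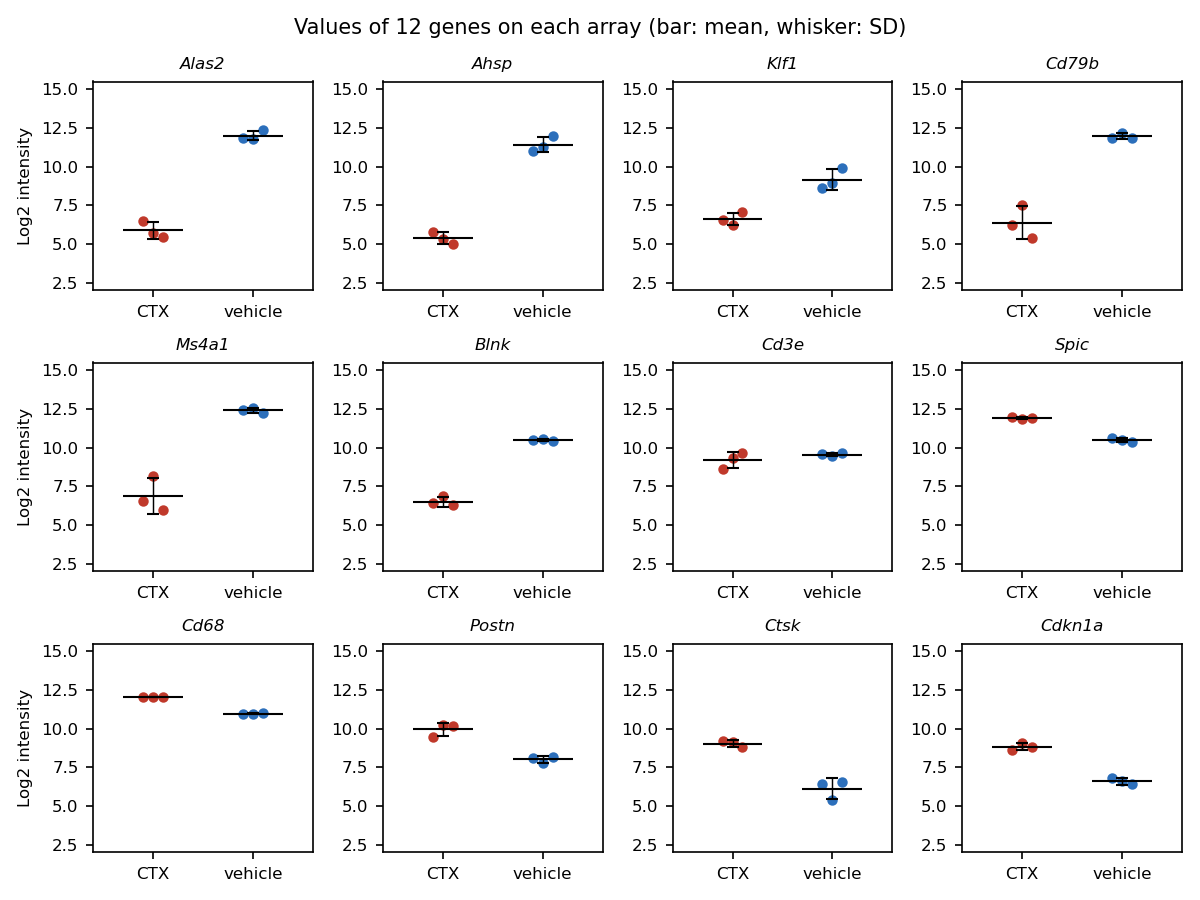
Log2 intensities of 12 genes on each array, with CTX spleens (red) left of vehicle spleens (blue), the bar at the group mean and the whisker at 1 SD (3 arrays a group). The red cell genes Alas2, Ahsp and Klf1 and the B cell genes Cd79b, Ms4a1 and Blnk lie lower in CTX spleens without overlap, Cd3e overlaps, and Spic, Cd68, Postn, Ctsk and Cdkn1a lie higher.

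Granule protein genes made up the largest falls among granulocyte genes. Of 15 neutrophil and monocyte genes, 8 fell and 0 rose (median -1.55), and the count was 5 without CTX 4005 or vehicle 3001. RatNP-3b, a neutrophil defensin, had 4.48, 5.31 and 4.96 in CTX spleens, against 9.53, 9.48 and 10.45 in vehicle spleens (29.9-fold lower, limma adjusted p = 0.000632). The defensins Np4 and Defa5 fell 20.0-fold and 13.2-fold and the granule peptide Camp 10.5-fold, although defensin genes resemble each other closely and their probes may share signal. Csf3r, the granulocyte colony-stimulating factor receptor, did not pass at 7.64, 8.37 and 7.93 in CTX spleens and 7.86, 7.67 and 7.85 in vehicle spleens.

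Genes of eosinophils, basophils and mast cells split. Epx and Prg2, granule proteins of eosinophils, fell 8.30-fold and 5.28-fold, with Prg2 at 5.61, 6.06 and 5.65 in CTX spleens against 8.01, 8.28 and 8.24 in vehicle spleens. Epx was blank on CTX 4003 and near background on the other CTX arrays (3.5 and 2.56), and with 16 added to every intensity its log2 change was -1.98, against -3.05. Ccr3, the eotaxin receptor of mature eosinophils, moved the other way, at 9.48, 9.63 and 9.57 in CTX spleens against 7.14, 7.81 and 7.28 in vehicle spleens (4.43-fold, limma adjusted p = 0.000915). Of 11 such genes tested, 4 rose and 2 fell (median -0.40), beside 19.8% and 18.8% of all genes tested. The count that rose was 2 without CTX 4003, and the count that fell was 4 without CTX 4005. Of the 3 mast cell markers, the protease Cpa3 rose 1.63-fold at 5.70, 6.2 and 6.07 in CTX spleens against 5.43, 5.36 and 5.07 in vehicle spleens, with a limma adjusted p of 0.0563 to 0.0574 without CTX 4003, CTX 4005 or vehicle 3005. The other mast cell markers, Fcer1a and Ms4a2, did not pass. Il1rl1, the receptor of interleukin-33, rose 2.47-fold, a log2 change of 1.31 that was 0.90 with 16 added to every intensity. In spleens without wood Il1rl1 changed by 0.08 and did not pass (limma adjusted p = 0.83). Of 12 platelet and megakaryocyte genes, 8 fell and 0 rose (median -1.50). Treml1, a receptor of platelet granules, had 5.50, 5.64 and 5.56 in CTX spleens, against 8.22, 8.26 and 8.66 in vehicle spleens. Tubb1, the tubulin of platelets, fell 5.01-fold and Gp9 4.02-fold, while the chemokine Pf4 did not pass at a change of -0.41.

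Genes of cell division fell, and the size of the fall differed between rats. Of 38 mitosis genes tested, 22 fell and 0 rose, with a median of -1.18. Mki67, the proliferation marker, had 7.61, 8.81 and 7.89 in CTX spleens, against 9.74, 9.92 and 10.68 in vehicle spleens (4.03-fold lower, limma adjusted p = 0.00959). Cdkn3, a phosphatase of cyclin-dependent kinases, had 5.66, 7.10 and 6.19 in CTX spleens, against 8.58, 8.92 and 9.19 in vehicle spleens. Cenpf, a kinetochore protein, had 4.88, 6.41 and 5.89 in CTX spleens, against 8.07, 7.98 and 8.80 in vehicle spleens. The groups do not overlap for any of the 3, and CTX 4003 is each time the CTX spleen nearest to the vehicle spleens. Without CTX 4003 the count of mitosis genes that fell was 31, and without any other array it was 16 to 20. Top2a, the topoisomerase of dividing cells, had 8.26, 9.48 and 8.80 in CTX spleens, against 9.38, 9.63 and 9.92 in vehicle spleens, and did not pass.

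The promoters of mitosis genes are known for the cell cycle homology region, with the letters TTTGAA, and for CCAAT boxes. TTTGAA, on either strand, was in 23 of 33 promoter windows of mitosis genes (69.7%), against 12.3% of windows of genes tested. CCAAT, on either strand, was in 26 of 33 (78.8%), against 37.4%. The windows of the 3 genes above are shown, from RefSeq build GRCr8 and ending at the base before the start, with both motifs in capitals. The shown window of Cenpf has CCAAT alone, and in Mki67 the TTTGAA nearest the start overlaps a CCAAT on the other strand.

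Cdkn3 (chr15:22502136-22502385, plus strand): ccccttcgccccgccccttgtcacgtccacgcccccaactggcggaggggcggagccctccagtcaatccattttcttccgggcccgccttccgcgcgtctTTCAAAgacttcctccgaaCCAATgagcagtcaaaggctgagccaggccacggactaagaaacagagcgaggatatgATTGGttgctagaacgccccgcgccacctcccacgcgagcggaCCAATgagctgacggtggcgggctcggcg

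Cenpf (chr13:103760887-103761136, minus strand): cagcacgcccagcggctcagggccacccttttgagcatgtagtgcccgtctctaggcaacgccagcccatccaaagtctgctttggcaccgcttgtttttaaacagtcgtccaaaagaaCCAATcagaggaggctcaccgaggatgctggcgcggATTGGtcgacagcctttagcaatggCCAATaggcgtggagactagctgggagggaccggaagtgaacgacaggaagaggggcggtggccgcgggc

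Mki67 (chr1:199952594-199952843, minus strand): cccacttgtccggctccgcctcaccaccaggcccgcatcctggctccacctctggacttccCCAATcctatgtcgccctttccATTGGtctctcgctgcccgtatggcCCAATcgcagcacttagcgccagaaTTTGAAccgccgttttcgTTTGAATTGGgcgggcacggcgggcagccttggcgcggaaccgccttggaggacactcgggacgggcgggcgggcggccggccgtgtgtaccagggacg

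Replication genes fell less. Of 41 tested, 14 fell and 1 rose (median -0.45), and the count that fell was 23 without CTX 4003, 8 without CTX 4005, vehicle 3003 or vehicle 3005, and 9 without CTX 4001. Mcm3, part of the replicative helicase, had 8.05, 8.55 and 8.17 in CTX spleens, against 10.03, 10.22 and 10.08 in vehicle spleens (3.61-fold lower, limma adjusted p = 0.000808). Pold1, the catalytic subunit of DNA polymerase delta, fell 2.22-fold. Pola2, a subunit of the polymerase that primes replication, was the gene that rose (2.05-fold), and the sliding clamp Pcna did not pass (-0.15). In spleens without wood Pola2 changed by 0.20 and did not pass (limma adjusted p = 0.342). The E2F motif GCGGGAA, on either strand, was in 14 of 37 promoter windows of the list (37.8%), against 7.7% of windows of genes tested. Mcm7, another helicase subunit, fell 1.76-fold and was chosen for its motif after its values were seen, and its RefSeq window (GRCr8, ending at the base before the start) has the motif in capitals.

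Mcm7 (chr12:22163179-22163428, minus strand): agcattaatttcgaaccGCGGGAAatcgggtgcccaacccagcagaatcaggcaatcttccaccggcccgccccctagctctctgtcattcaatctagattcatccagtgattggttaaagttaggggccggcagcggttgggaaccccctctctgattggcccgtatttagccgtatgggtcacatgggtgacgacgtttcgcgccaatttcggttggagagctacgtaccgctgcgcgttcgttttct

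Targets of p53, the factor that answers DNA damage, moved upward. Of 21 tested, 11 rose and 1 fell (median 0.47). Cdkn1a, the inhibitor p21 that halts the cell cycle, had 8.61, 9.07 and 8.80 in CTX spleens, against 6.84, 6.60 and 6.39 in vehicle spleens (4.65-fold, limma adjusted p = 0.000714). Its other probe set did not pass at 1.18, against 2.22 for the one used. Phlda3, a repressor of Akt, rose 2.76-fold at 10.21, 10.28 and 10.21 in CTX spleens against 8.59, 8.83 and 8.89 in vehicle spleens. Plk2 and Sesn2, a kinase and a stress sensor, rose 2.33-fold and 2.38-fold, and a second Sesn2 probe set did not pass at 0.64. Mdm2, the ligase that removes p53, had 9.68, 9.83 and 9.75 in CTX spleens and 9.68, 9.72 and 9.63 in vehicle spleens and did not pass. Sesn1 fell 1.61-fold.

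DNA repair and cell death genes moved both ways. Of 27 repair and checkpoint genes, 9 fell and 2 rose (median -0.36). The count that rose was 1 without any array but CTX 4001, and the count that fell was 12 without CTX 4003, 3 without vehicle 3003, and 4 without CTX 4001, CTX 4005 or vehicle 3005. Fanca, a core protein of the Fanconi crosslink repair complex, rose 3.20-fold at 5.79, 6.15 and 5.81 in CTX spleens against 3.96, 3.89 and 4.86 in vehicle spleens. With 16 added to every intensity its log2 change was 1.12, against 1.68. In spleens without wood its change was -0.69 and did not pass (limma adjusted p = 0.224). Blm, a helicase of homologous recombination, fell 2.36-fold, and Ercc4, the nuclease XPF that cuts at crosslinks, fell 1.59-fold. A second Ercc4 probe set did not pass at -0.15. Of 19 cell death genes, 4 rose and 7 fell, while 19.8% of all genes tested rose and 18.8% fell. Tnfsf10, the death ligand TRAIL, rose 2.10-fold, and Birc3, an inhibitor of apoptosis, fell 1.94-fold.

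Macrophage genes rose. Of 16 tested, 13 rose and 1 fell (median 0.86). Spic, the factor that makes red pulp macrophages, had 12, 11.83 and 11.90 in CTX spleens, against 10.62, 10.48 and 10.39 in vehicle spleens (2.66-fold, limma adjusted p = 0.000653). Cd68, a macrophage lysosome protein, had 12.06, 12.04 and 12.06 in CTX spleens, against 10.95, 10.94 and 11.03 in vehicle spleens. Mertk, a receptor for the uptake of dead cells, rose 2.40-fold, and Lyz2, the lysozyme that neutrophils and monocytes also make, fell 2.16-fold.

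Of 16 genes that recycle iron and haem, 8 rose and 3 fell (median 0.53), or 1 fell without vehicle 3005. Slc48a1, which exports haem from the lysosome, had 11.14, 10.89 and 11.06 in CTX spleens, against 9.69, 9.48 and 9.83 in vehicle spleens (2.58-fold). Blvra, which turns biliverdin into bilirubin, rose 2.35-fold, and Cp, the ferroxidase ceruloplasmin, 2.25-fold. Tfr2, a transferrin receptor of liver and red cell precursors, was lower at 0.77, 2.57 and 3.66 in CTX spleens against 5.29, 5.13 and 6.78 in vehicle spleens, with a limma adjusted p of 0.0559 without vehicle 3005. With 16 added to every intensity its change was -1.67, against -3.40 as measured, and it was -2.62 without CTX 4001 and -4.06 without CTX 4005.

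Lysosome and complement genes rose more often than they fell. Of 22 lysosome genes, 16 rose and 1 fell (median 0.55), and the count that fell was 0 without any 1 array. Ctsk, the collagen-cutting cathepsin, had 9.17, 9.13 and 8.80 in CTX spleens, against 6.45, 5.37 and 6.55 in vehicle spleens (7.50-fold, limma adjusted p = 0.00191). Lgmn and Ctsl, proteases of the endosome and lysosome, rose 2.61-fold and 2.35-fold. A second Lgmn probe set did not pass at 0.04, and with the mean of both its log2 change was 0.71, against 1.38. Of 11 complement genes, 7 rose and 2 fell (median 0.57). The classical pathway protease C1r and its inhibitor Serping1 rose 2.42-fold and 2.50-fold, while Cd55, which protects cells from complement, fell 7.91-fold at 4.87, 5.17 and 5.15 in CTX spleens against 7.91, 7.88 and 8.35 in vehicle spleens.

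Stromal genes rose widely. Of 38 collagen and matrix genes, 32 rose and 1 fell (median 1.16). Mmp2, a matrix protease, had 9.22, 9.48 and 9.37 in CTX spleens, against 7.16, 6.93 and 7.41 in vehicle spleens (4.56-fold, limma adjusted p = 0.000632). Its other probe set did not pass at 0.01, and with the mean of both its log2 change was 1.10, against 2.19. Postn, a matrix protein of fibroblasts, had 9.47, 10.22 and 10.20 in CTX spleens, against 8.11, 7.75 and 8.19 in vehicle spleens (3.85-fold). Lamb1, a laminin chain of basement membranes, rose 3.84-fold and Col6a1 3.62-fold. Fn1, fibronectin, was the one that fell, at 9.51, 8.87 and 8.45 in CTX spleens against 10.33, 9.93 and 10.41 in vehicle spleens, and its limma adjusted p was 0.05 to 0.0516 without CTX 4003, vehicle 3001 or vehicle 3005.

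Of 15 fibroblast and splenic stroma genes, 8 rose and 1 fell (median 0.76), and the count that fell was 0 without any array but CTX 4003. Tcf21, a mesenchymal factor needed to form the spleen, had 11.00, 10.80 and 10.84 in CTX spleens, against 9.09, 9.29 and 9.30 in vehicle spleens (3.14-fold, limma adjusted p = 0.000592). Pdgfra and Pdgfrb, receptors for platelet-derived growth factors, rose 2.60-fold and 2.53-fold. Of 13 smooth muscle genes, 9 rose and 0 fell (median 0.83), among them the muscle myosin Myh11 (2.71-fold) and the muscle filament protein Des (2.11-fold). Of 20 endothelial genes, 16 rose and 1 fell (median 0.96). Plvap, which forms the diaphragms of vessel pores, had 12.05, 12.02 and 11.92 in CTX spleens, against 10.49, 10.61 and 10.91 in vehicle spleens, and the lymphatic receptor Flt4 rose 3.70-fold. Vwf, made by endothelium and megakaryocytes, changed the other way by -0.90, with limma adjusted p of 0.0609 to 0.0651 without CTX 4001, CTX 4005, vehicle 3001 or vehicle 3005.

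Growth factors rose and none fell: 16 of 23, with a median of 1.03. Fgf7, a fibroblast factor that acts on epithelium, had 7.65, 7.36 and 7.45 in CTX spleens, against 5.32, 5.19 and 4.78 in vehicle spleens (5.24-fold, limma adjusted p = 0.000632). Kitlg, the stem cell factor of blood precursors, had 10.06, 9.89 and 9.97 in CTX spleens, against 8.38, 8.31 and 8.33 in vehicle spleens (3.10-fold, limma adjusted p = 0.000532). Igf1, at 11.16, 11.31 and 11.32 in CTX spleens against 9.72, 9.68 and 9.71 in vehicle spleens, rose 2.95-fold. Kitlg and Igf1 varied little within each group and the groups lie well apart.

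Signals that place lymphocytes and keep them alive moved both ways. Of 16 homing and survival genes, 8 rose and 4 fell (median 0.38), and the count that rose was 5 without CTX 4003. Il7, a survival factor made by stroma, had 9.65, 9.96 and 9.87 in CTX spleens, against 7.94, 8.03 and 7.80 in vehicle spleens (3.74-fold). The chemokines Ccl19 and Cxcl12 rose 2.49-fold and 2.37-fold, and Ltbr, the lymphotoxin receptor of stromal cells, 2.50-fold. The 4 genes that fell, which lymphocytes are known to express, were the receptors Ccr6 (18.3-fold lower), Cxcr4 (2.40-fold) and S1pr1 (2.33-fold), and Ltb (2.43-fold), which helps form the ligand of Ltbr. A second S1pr1 probe set did not pass at 0.16, and with the mean of both its log2 change was -0.53, against -1.22.

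**Figure D3:**
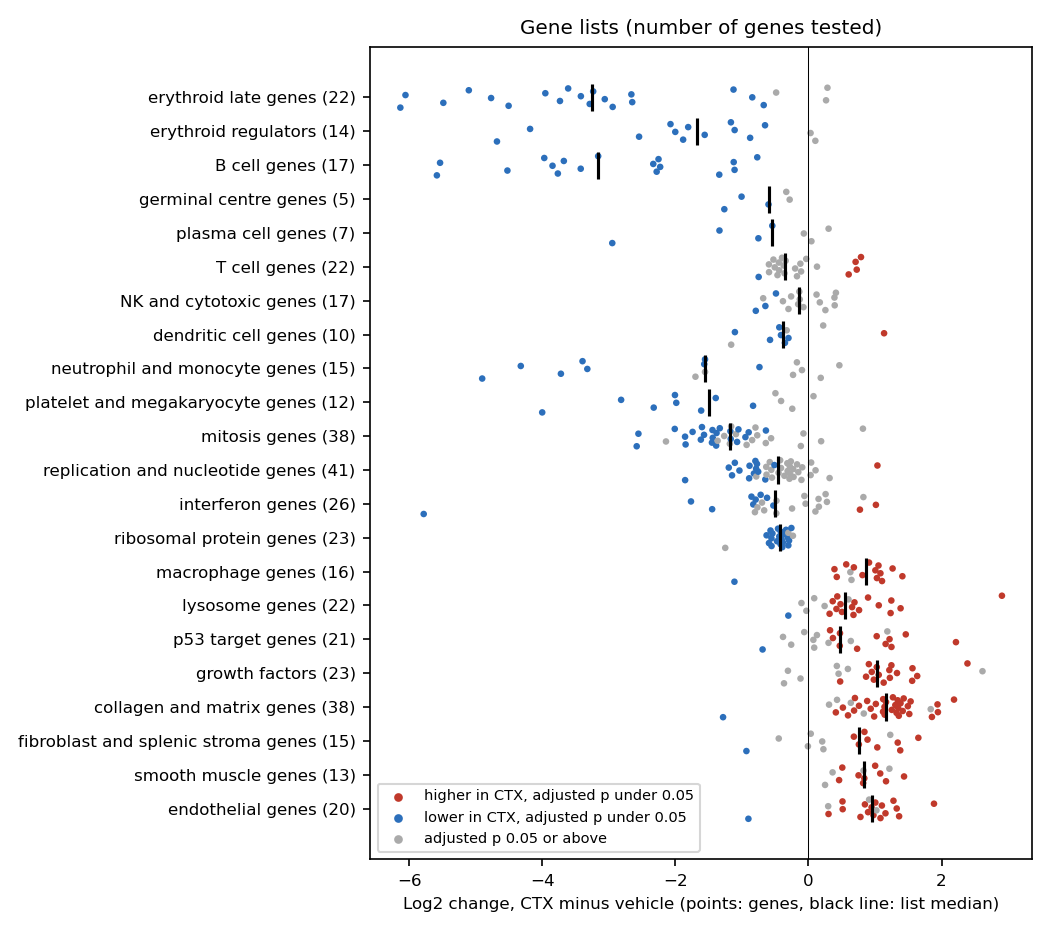
Each point is a gene of the list named at the left (number tested in parentheses) at its log2 change, CTX minus vehicle, red where higher, blue where lower and grey where the adjusted p was 0.05 or above, with a black line at the list median. Red cell and B cell lists have medians of -3.26 and -3.16, and the collagen and matrix list one of 1.16.

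Of 26 interferon-induced genes tested, 9 fell, 2 rose and 15 did not pass (median -0.50). Rsad2, the antiviral protein viperin, fell 55.0-fold, with 7.70, 5.17 and 3.92 in CTX spleens against 11.11, 11.40 and 11.61 in vehicle spleens (limma adjusted p = 0.00512), so that the CTX spleens spread widely and still lie under every vehicle spleen. Its change of -5.78 was -6.83 without CTX 4001 and -4.94 without CTX 4005. Ifit1 and Mx2, other antiviral effectors, fell 3.40-fold and 2.73-fold. Gbp2, a guanylate-binding protein induced by interferon gamma, rose 2.02-fold at 11.65, 11.85 and 11.64 in CTX spleens against 10.57, 10.61 and 10.91 in vehicle spleens. The chemokine Cxcl9, also induced by interferon gamma, rose 1.71-fold. An interferon response repeat, GAAA followed by NN and a further GAAA on either strand, was in 12 of 20 promoter windows of the list (60.0%), against 3.0% of windows of genes tested. Rsad2 and Gbp2, which moved in opposite directions, both hold it, and their RefSeq windows (GRCr8, ending at the base before the start) have it in capitals.

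Rsad2 (chr6:48788121-48788370, minus strand): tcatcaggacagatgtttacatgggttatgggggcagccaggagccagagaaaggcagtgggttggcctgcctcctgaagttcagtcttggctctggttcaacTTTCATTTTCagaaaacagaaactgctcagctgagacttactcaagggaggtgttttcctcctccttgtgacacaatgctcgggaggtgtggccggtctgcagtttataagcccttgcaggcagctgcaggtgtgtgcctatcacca

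Gbp2 (chr2:234005477-234005726, plus strand): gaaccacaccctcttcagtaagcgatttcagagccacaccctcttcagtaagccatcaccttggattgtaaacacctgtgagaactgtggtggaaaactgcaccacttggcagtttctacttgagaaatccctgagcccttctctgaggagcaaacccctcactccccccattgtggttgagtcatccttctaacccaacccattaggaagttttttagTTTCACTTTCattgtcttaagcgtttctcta

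Of 9 genes of antigen presentation by class II molecules, 2 fell and 0 rose, beside 18.8% and 19.8% of all genes tested. The count that fell was 1 without any array but CTX 4001. Ciita, their activator, fell 2.03-fold at 8.86, 8.91 and 8.69 in CTX spleens against 9.93, 9.81 and 9.80 in vehicle spleens. RT1-Da and RT1-Db1, class II chains themselves, did not pass, with changes of -0.25 and -0.24. Of 25 cytokines and inflammatory mediators, 7 rose and 6 fell, beside 19.8% and 18.8% of all genes tested. Ccl24, an eotaxin that macrophages secrete and a ligand of Ccr3, had 9.11, 8.76 and 9.04 in CTX spleens, against 6.40, 6.66 and 6.29 in vehicle spleens (5.73-fold, limma adjusted p = 0.000555). Il33, an alarmin of stromal cells, rose 2.82-fold, and Il6 fell 6.12-fold at 3.94, 4.09 and 4.02 in CTX spleens against 6.77, 6.99 and 6.14 in vehicle spleens. With 16 added to every intensity the log2 change of Il6 was -1.84.

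Detoxification genes rose more often than they fell. Of 22 targets of NRF2 and aldehyde-clearing enzymes, 13 rose and 1 fell (median 0.66), and the count that fell was 0 without any array but vehicle 3001. Osgin1, an oxidative stress response gene, had 7.04, 7.03 and 7.04 in CTX spleens, against 5.22, 5.05 and 4.53 in vehicle spleens (4.30-fold, limma adjusted p = 0.000967). Gstt1, a glutathione transferase, rose 4.65-fold, and Ephx1, an epoxide hydrolase, 2.54-fold. The enzymes of glutathione synthesis did not pass, among them Gclm at -0.30.

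Of 17 clock genes, 8 rose and 2 fell (median 0.64), and 1 fell without CTX 4001 or vehicle 3005. Rora, an activator in the clock's second loop, had 6.88, 6.60 and 6.51 in CTX spleens, against 4.62, 4.76 and 4.82 in vehicle spleens (3.82-fold, limma adjusted p = 0.000632), and its log2 change was 1.13 with the mean of its probe sets, against 1.93. The output factors Hlf and Dbp rose 3.22-fold and 2.89-fold, and the repressor Cry1 fell 2.33-fold. Other Hlf probe sets were at 1.53, 2.07 and 0.01, the last without passing. The E-box CACGTG, which the clock's activators bind, was in 3 of 15 promoter windows of the list (20.0%), against 9.0% of windows of genes tested. The sources used here do not give the hour of necropsy. Of 11 glucocorticoid targets, 4 rose and 0 fell, and the count was 2 without vehicle 3001 or 3003 and 7 without CTX 4005. The kinase Sgk1 rose 2.10-fold, and Tsc22d3 did not pass at 11.29, 10.42 and 10.04 in CTX spleens and 10.45, 10.49 and 11.20 in vehicle spleens.

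Ribosomal protein genes were lower: 20 of 23 fell and 0 rose, with a median of -0.42 and a range of -1.25 to -0.23. None of the 20 fell by as much as 2-fold, and the gene at -1.25 did not pass. Rps3, of the small subunit, had 12.20, 12.34 and 12.08 in CTX spleens, against 12.83, 12.91 and 12.76 in vehicle spleens. Under quantile normalization the count was 10 and the median -0.23, the same direction. Lipid genes split, with 8 of 14 higher and 1 lower. Cd36, a scavenger receptor for fatty acids, rose 2.01-fold, and Scd, which desaturates fatty acids, fell 18.0-fold at 3.56, 4.49 and 4.62 in CTX spleens against 8.88, 8.45 and 7.84 in vehicle spleens, or by 3.32 on the log2 scale with 16 added to every intensity. In respiratory chain genes 3 of 29 rose and 1 fell, and the median was -0.04. The count that rose was 1 without CTX 4003, CTX 4005, vehicle 3001 or vehicle 3005, and the count that fell was 0 without CTX 4001, CTX 4005, vehicle 3003 or vehicle 3005.

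The rats given cyclophosphamide were not alike. The mean deviation of each list from the vehicle mean, over members with a value on all 6 arrays, was -1.57, -0.56 and -1.31 for mitosis genes in CTX 4001, 4003 and 4005, against -0.25, 0.00 and 0.26 in vehicle 3001, 3003 and 3005. CTX 4003 thus lay nearest to the vehicle spleens in mitosis genes. It also did in B cell genes, at -3.17, -2.65 and -3.16 in the CTX spleens, against 0.00, 0.19 and -0.19 in the vehicle spleens. In replication genes it stood at -0.13, within the vehicle range of -0.15 to 0.13. Red cell genes did not follow this order, with -2.79, -3.16 and -3.20 in the CTX spleens, against -0.32, -0.12 and 0.44 in the vehicle spleens. CTX 4001 was the lowest spleen in T cell genes, at -0.47, -0.08 and 0.07 in the CTX spleens against 0.06, -0.09 and 0.03 in the vehicle spleens. In the collagen and matrix list the CTX spleens were close together at 1.10, 1.24 and 0.96, against 0.09, -0.19 and 0.10 in the vehicle spleens.

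**Figure D4:**
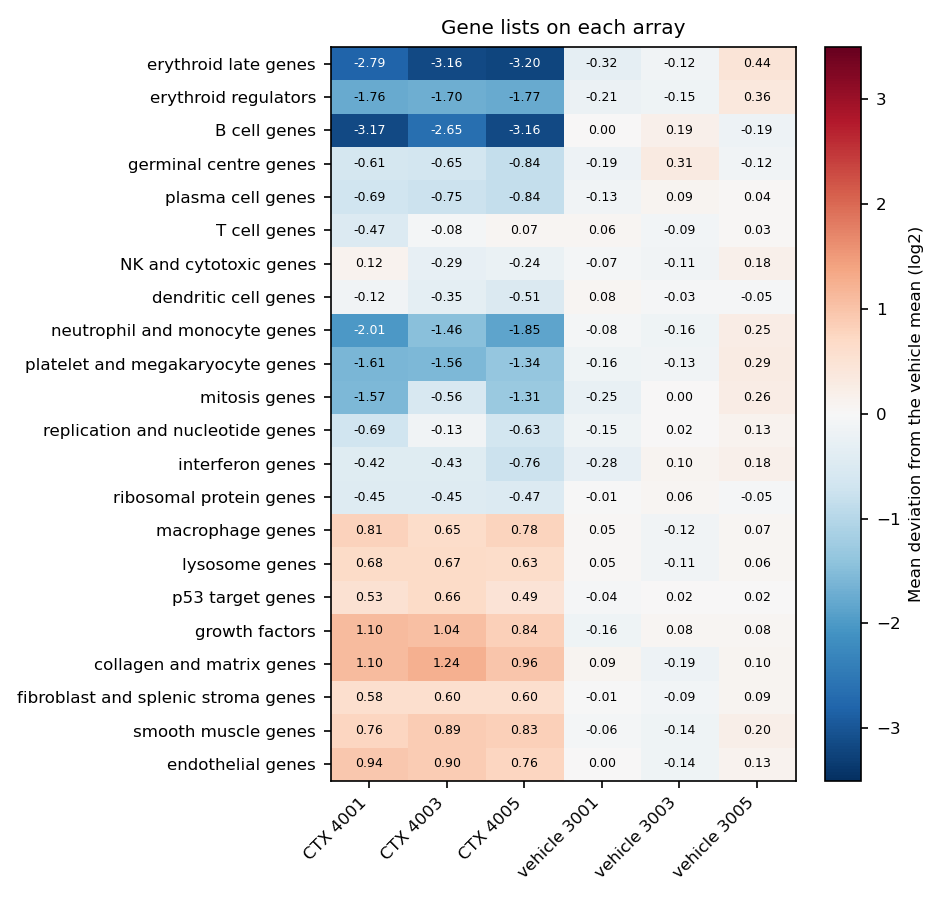
Mean deviation of each gene list from its vehicle mean (log2) on every array, with the CTX spleens in the left columns and the vehicle spleens in the right columns, blue for lower and red for higher. The mitosis row reads -1.57, -0.56 and -1.31 in the CTX spleens.

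Markers of each cell type were summed as linear intensity over the markers on the array, with blank cells left out. Many of these markers are genes already described above, so the sums are not a separate check on the lists. Red cell markers (Alas2, Ahsp, Hemgn and Epb42) summed to 104 to 189 in CTX spleens, against 6870 to 12000 in vehicle spleens. Of 5 B cell markers only 2, Cd79b and Ms4a1, were on the array. They summed to 104 to 464 in CTX spleens, against 8590 to 10700 in vehicle spleens. T cell markers summed to 3030 to 5140 in CTX spleens and 4730 to 5360 in vehicle spleens, and the ranges overlapped. All 5 red pulp macrophage markers rose, and their sum was 25900 to 28100 in CTX spleens, against 15800 to 18200 in vehicle spleens. Fibroblast markers summed to 3360 to 3650 in CTX spleens, against 1430 to 1680 in vehicle spleens, with 3 of 4 higher. Nkx2-5, a factor of splenic mesenchyme that marks the organ, had 9.33, 9.26 and 9.48 in CTX spleens and 8.39, 8.66 and 8.74 in vehicle spleens. For neighbouring organs, the 5 exocrine pancreas markers summed to 421 to 581 in CTX spleens, against 308 to 378 in vehicle spleens, with 0 of 5 called. Hepatocyte markers summed to 136 to 535 in CTX spleens and 169 to 365 in vehicle spleens, with 0 of 4 called. The red cell, B cell, macrophage and fibroblast sums thus restate in part the genes above. The part of these cell types in the other changes was not tested.

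In spleens without wood, the same comparison in other rats called 4650 of 13492 genes (34.5%). Of the genes tested in both, 3345 passed in both, which is 63.9% of the 5237 calls with wood and 72.1% of the 4638 calls without wood, and 3331 of them had the same sign. The median change of maturing red cell genes was -3.26 with wood and -4.37 without, and that of B cell genes was -3.16 with wood and -2.84 without. For collagen and matrix genes it was 1.16 with wood and 0.96 without. Of the mitosis genes tested, 22 of 38 fell with wood and 33 of 37 without, with medians of -1.18 with wood and -1.64 without. The difference in drug effect between housings passed in 38 of 13336 genes (0.285%, 1682 at an unadjusted p under 0.05) and in 0 members of the mitosis, maturing red cell and B cell lists. That count was 5, 6, 15, 16, 17, 19 and 24 without the spleens of rats 2001, 2003, 1005, 3003, 4001, 4003 and 3005 in turn, and 876 without 2005. Blank counts were uneven without wood, above 1500 on all 3 vehicle arrays and on 1 CTX array, and the groups compared there differ in this as well.

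**Figure D5:**
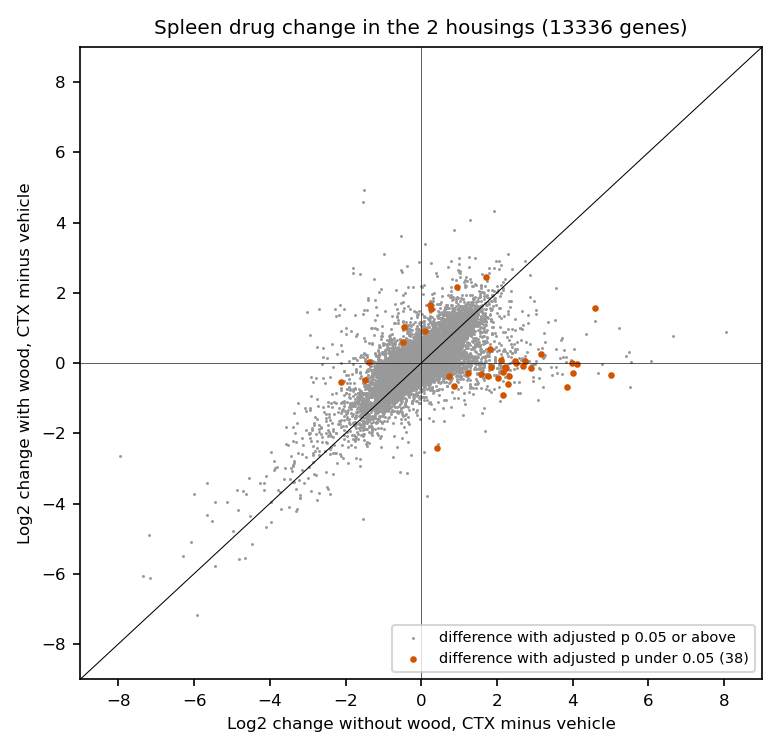
Log2 change, CTX minus vehicle, of 13336 genes in spleens without wood (horizontal axis) and with wood (vertical axis), with a line of equal change. The 38 genes whose change differed between housings at an adjusted p under 0.05 are orange, and 28 of them lie to the right of the line.

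Livers of the same 6 rats showed no gene past the threshold. With limma, 0 of 12346 genes (0%) passed between CTX and vehicle livers with wood, while 1183 had an unadjusted p under 0.05 and the smallest adjusted p was 0.0756. The difference between the spleen change and the liver change itself passed in 2332 of 12162 genes (19.2%), with 1378 more positive and 954 more negative in spleen. With the rat as a block, over the 11413 genes with a value on all 12 arrays, the count was 1747, against 2371 for the same genes without the block. Over all genes tested it was 1325, 1289 and 1535 without vehicle 3001, vehicle 3003 and CTX 4005. Ms4a1 had 6.87 in CTX spleens and 12.41 in vehicle spleens, and 5.77 in CTX livers and 6.02 in vehicle livers (means, n = 3 arrays each). Some of the genes described above had large liver changes that did not pass. The change in liver was -3.23 for Alas2 (limma adjusted p = 0.0756), -3.36 for Hba-a3 (0.382), -2.49 for the class II chaperone Cd74 (0.0756) and -2.19 for RT1-Da (0.105). In spleen Alas2 changed by -6.13, Hba-a3 by -5.10, Cd74 by -0.27 and RT1-Da by -0.25. List medians in liver were -0.28 for maturing red cell genes, 0.38 for mitosis genes and -0.01 for collagen and matrix genes.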

How the data were processed

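Whole-organ RNA was measured on Affymetrix Rat 230 2.0 arrays. The authors deposited 1 table of log10 intensities of 30980 probe sets on 24 arrays. The log base was inferred from the values, which span 2143-fold read as log10 and 10.1-fold read as log2. The summarisation and scaling are not given in the sources used here. Deposited values were turned into log2, with blank cells, mostly dim probe sets, as missing. Probe sets were named through the platform annotation and RefSeq (20792 with 1 gene, 436 with several, 9752 with none), and the brightest probe set stood for each of 14201 genes.

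The fit was limma 3.58.1 in R 4.3.3 (lmFit, eBayes) on the 6 spleen arrays, with at least 2 values per group and Benjamini-Hochberg adjustment over all genes tested at 0.05. The housing and tissue differences were contrasts over 12 arrays each. The drug groups share no animal. Spleen and liver of a rat share its number per the labels, and their deviations correlated at 0.02 to 0.077. Alternatives changed the scaling, offset, probe set rule, filter, fit and arrays left out. On simulated data for the drug comparison (13813 genes), 52.2% of changes of 1 on the log2 scale were found, and 14.9% of changes of 0.5. Each of these changes was given to 67 genes, and 11 unchanged genes passed. With so few changed genes, against 5321 called in the data, the adjusted threshold is stricter there, so these shares do not carry over. Precision is limited by having 3 arrays in each group.

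Members and lists were chosen with earlier results of these data known. Named genes were the 10 largest rises and falls with values on all 6 arrays, no overlap and a mean log2 level of at least 6 in the higher group, and in each list up to 4 members that passed in each direction and 2 that did not.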

Additional observations from a re-analysis of the deposited data

Results flagged for a closer look

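The drug effect in spleen differed between housings, with wood minus without wood, in 38 genes by limma's contrast over 12 arrays. The difference was 1.49 for Spry2, 1.40 for Smo, 1.56 for Ppp1r14c and 1.23 for Col6a6. It was -3.98 for Tmem239, -4.53 for Tnni2, -2.89 for Tspyl2 and -5.35 for Lpcat4. For Lpcat4 the means were 7.63 in CTX and 7.98 in vehicle spleens with wood, and 7.55 in CTX and 2.55 in vehicle spleens without wood. In 33 of the 38 genes the vehicle groups of the 2 housings differed by over 1 on the log2 scale, and in 0 the CTX groups did. In 20 of them some array was blank, and the part of the uneven blank cells in these differences was not tested.

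The drug effect differed between spleen and liver of the rats with wood in 2332 genes by the same kind of contrast. The difference, spleen minus liver, was 3.68 for Rsph10b, 3.42 for Olfml1, 3.42 for Klk1b3 and 3.09 for Fgfr1. It was -5.28 for Ms4a1, -5.06 for RatNP-3b, -4.54 for Tspan33 and -4.45 for Cd24. For Cd24 the means were 6.28 in CTX and 10.05 in vehicle spleens, and 4.73 in CTX and 4.04 in vehicle livers. Without rat 3003 the limma adjusted p of Fgfr1 was 0.0517.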

How the results depend on the processing

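The count of 5321 genes called with wood was 3983 to 4629 without 1 rat, 8862 with every probe set tested on its own, 920 against a change of 1.5-fold (limma treat), and 4072 to 5914 under the other settings. Of 232 named genes called, 165 kept the call without each rat in turn and 195 under every other setting but the 1.5-fold test. Lss reversed to 0.10 (limma adjusted p = 0.941) with the mean of its probe sets; the cause was not tested. The housing count of 38 was 5 to 876 without 1 rat, 62 with 16 added to every intensity, 11 with values on all 12 arrays and 112 with a term for arrays with over 1500 blanks. The tissue count of 2332 was 1289 to 1735 without 1 rat and, over the 11413 genes with a value on all 12 arrays, 1747 with the animal as a replicate block and 2371 without it; the groups given drug and vehicle share no number to pair. Of 92 list counts, 41 moved by over 1.5 times without at least 1 rat. With 16 added to every intensity the log2 changes of Fcer2, Nfe2, Np4, RatNP-3b and Camp were -3.90, -3.54, -3.68, -4.31 and -2.76. Dim probe sets limit the large falls, whose size depends on signal near background.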

Other observations

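Immediate early genes moved both ways, with 2 of 19 higher and 7 lower in CTX spleens, beside 19.8% and 18.8% of all genes tested. Jun, a subunit of the AP-1 factor, rose by 1.27 on the log2 scale. Myc, a factor of cell growth, had 8.11, 8.43 and 8.53 in CTX spleens, against 9.57, 9.88 and 9.32 in vehicle spleens (limma adjusted p = 0.00393). Of 15 sterol synthesis genes, 5 fell and 0 rose, and the count was 3 without CTX 4001, vehicle 3001 or vehicle 3005. Mvd, an enzyme of the mevalonate pathway, changed by -1.43. Of 14 glycolysis genes, 2 rose and 4 fell, and 0 rose without CTX 4001, CTX 4003, vehicle 3001 or vehicle 3003. Hk1, a hexokinase, was at -1.27, and a second probe set of it did not pass at -0.35.

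Some genes had values in 1 group alone and were not tested. In 20 genes all 3 CTX arrays had a value and all 3 vehicle arrays were blank, among them Ush1c, a scaffold protein, at 4.71, 3.85 and 4.91 in CTX spleens. In 16 genes the reverse held, among them Aqp3, a water and glycerol channel, at 4.11, 4.68 and 7.11 in vehicle spleens.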
